A study of Mus musculus with 12 samples.

Results

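The citrate export and acetyl-CoA supply genes are 9 of 21951 protein-coding mouse genes: Slc25a1, Acly, Cs, Acss1, Acss2, Aco1, Idh1, Idh2 and Acaca. They were chosen by name. Each deposited region of a histone mark that overlapped the body of one of these genes, or the 20 kb on either side of it, was taken as a region of that gene. This gave 33 of the 31617 H3K27ac regions and 12 of the 28047 H3K27me3 regions. Both marks were profiled by CUT&RUN, in which cells are permeabilised, an antibody brings a nuclease to its chromatin mark, and the fragments cut free there are sequenced. The cells were mesenchymal stem cells (MSCs), stromal cells that can become bone, fat or cartilage cells, from young mice of 3 to 5 months and old mice of 18 to 22 months. The series was made to describe how age alters metabolism and chromatin in these cells. All were kept at 2% oxygen, and no strain, genotype or treatment was given in the labels for either age. With 2 marks and 2 ages there were 4 groups of 3 samples, and the cells of a sample were shared between the antibodies, so that sample numbers join the marks. The labels did not say whether samples were single animals or pools, so the p-values measure the spread between these samples, which may be technical in part.

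Citrate synthase (Cs) joins acetyl-CoA to oxaloacetate inside the mitochondrion. The citrate carrier Slc25a1 exports citrate to the cytosol, and ATP citrate lyase (Acly) splits it there into oxaloacetate and acetyl-CoA. Acss2 makes acetyl-CoA from acetate in the cytosol and nucleus, and Acss1 does the same inside mitochondria. Aco1, the cytosolic aconitase, turns citrate into isocitrate and can instead bind RNA as an iron-regulatory protein. Idh1 and Idh2, of the cytosol and the mitochondrion, interconvert isocitrate and 2-oxoglutarate with NADP. Acaca carboxylates cytosolic acetyl-CoA to malonyl-CoA, the first committed step of fatty acid synthesis. Acetyl-CoA in the nucleus and cytosol is also the acetyl donor of histone acetylation, including that of H3K27, which marks active promoters and enhancers. Trimethylation of the same residue, H3K27me3, is laid down by Polycomb complexes and marks repressed genes.

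The marks divided the 9 genes at their transcription start sites (TSS). Within 1 kb of a protein-coding TSS, 7 genes had an H3K27ac region and no H3K27me3 region, namely Acly, Cs, Acss2, Aco1, Idh1, Idh2 and Acaca. Of all protein-coding genes with such a TSS, 44.0% had this state. Slc25a1, the exporter, had both marks near its TSS, as had 9.88% of genes. Acss1, the mitochondrial acetate enzyme, had H3K27me3 alone, as had 24.6% of genes. All 9 thus had a mark at a TSS, whereas 21.5% of genes had neither. These counts describe which regions the deposited tables list, and a gene outside every region can still hold signal below the level at which a region was called.

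No region of the 9 genes passed the test between ages in either mark. Slc25a1 and Idh2 had the largest upward estimates of H3K27ac at a TSS. Downward estimates were found at TSSs inside Idh1 and Acaca, and that of Idh1 (log2 fold change -0.38) was the largest in either direction. The start-site domain of Acss1 had less H3K27me3 in all 3 old samples than in any young sample. Each of these differences stayed above an adjusted p of 0.05 over the whole table (limma with Benjamini-Hochberg adjustment), as given with its values further on.

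The bases before the TSS of the exporter, of both enzymes that make acetyl-CoA in the cytosol, and of Acss1 are shown because these 4 starts span the states found, H3K27ac alone (Acly and Acss2), both marks (Slc25a1) and H3K27me3 alone (Acss1). Acss1 was added to the other 3 after its values were seen. All 4 are RefSeq sequence of GRCm38.p6, 250 bases long, written 5′ to 3′ in the direction of the gene and ending just before the RefSeq TSS. Capitals mark the CCAAT box bound by NF-Y (CCAAT) and the GC box bound by Sp1 factors (GGGCGG), each searched on both strands. The intervals are chr16:17928220-17928469 on the minus strand for Slc25a1, chr11:100528001-100528250 on the minus strand for Acly, chr2:155517793-155518042 on the plus strand for Acss2 and chr2:150668241-150668490 on the minus strand for Acss1.
Slc25a1: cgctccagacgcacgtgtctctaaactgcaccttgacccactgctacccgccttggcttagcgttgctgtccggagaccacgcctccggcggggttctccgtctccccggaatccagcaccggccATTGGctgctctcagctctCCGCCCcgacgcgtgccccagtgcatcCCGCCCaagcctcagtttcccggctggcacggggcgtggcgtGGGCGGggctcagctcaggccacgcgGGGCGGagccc
Acly: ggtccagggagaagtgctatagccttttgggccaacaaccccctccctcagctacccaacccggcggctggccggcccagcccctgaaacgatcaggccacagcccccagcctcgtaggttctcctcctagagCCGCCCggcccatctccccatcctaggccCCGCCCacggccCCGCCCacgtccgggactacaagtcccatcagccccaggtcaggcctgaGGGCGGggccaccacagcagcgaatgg
Acss2: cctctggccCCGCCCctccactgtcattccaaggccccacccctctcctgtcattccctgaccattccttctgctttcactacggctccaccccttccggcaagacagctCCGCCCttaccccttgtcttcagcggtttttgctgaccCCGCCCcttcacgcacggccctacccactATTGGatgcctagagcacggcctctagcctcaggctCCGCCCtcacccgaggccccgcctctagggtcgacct
Acss1: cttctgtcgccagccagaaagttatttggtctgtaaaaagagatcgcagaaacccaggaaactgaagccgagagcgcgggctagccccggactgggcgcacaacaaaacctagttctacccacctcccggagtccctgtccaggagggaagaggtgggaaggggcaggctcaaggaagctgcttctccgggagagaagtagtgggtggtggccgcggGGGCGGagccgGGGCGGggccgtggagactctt

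The 4 windows were rich in G and C, from 61.6% in Acss1 to 70.0% in Slc25a1, against a median of 52.4% over RefSeq promoters. Slc25a1 held 25 CpG dinucleotides, 1 CCAAT box and 4 GC boxes. Acly held 14 CpG and 4 GC boxes, Acss2 held 13 CpG, 1 CCAAT box and 4 GC boxes, and Acss1 held 15 CpG and 2 GC boxes. Over 32851 RefSeq promoters of this length the median was 6 CpG, a CCAAT box was found in 33.8% and a GC box in 32.7%. The sterol response element TCACNCCAC, present in 1.05% of promoters, had 0 matches in the windows of these 4 genes, which says only that these letters are not there. The Slc25a1 window lay inside the H3K27ac region of the gene, while its H3K27me3 region began 782 bp before the annotated TSS and so did not reach the window. The Acss1 window lay inside H3K27me3 only. Of the other genes, Cs, Aco1, Idh1 and Idh2 held 10 to 22 CpG in the windows before their RefSeq TSS, and the window before the RefSeq TSS of Acaca held 0 CpG.

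Signal is given as reads scaled to library size (RPM) for a constant 0.5 kb, as deposited, divided by the median-of-ratios (RLE) factor of the library. It grows with the length of a region, so levels of different regions are compared only as density, in scaled RPM per kb. Libraries held 2750953 to 5541429 reads for H3K27ac and 3622108 to 9947515 reads for H3K27me3, and old sample 2 was the shallowest in both marks. The labelled cell type was checked at the TSS of marker genes. All 13 MSC markers had an H3K27ac region, with a summed scaled signal of 1591 to 1741 in young and 1607 to 1730 in old samples. Of the blood and macrophage markers, Csf1r and Cd14 had one (24.996 to 28.9 in young, 24.0 to 29.9 in old), and Ptprc, Spi1, Itgam and Cd3e had none. Of 4 endothelial markers, only Pecam1 had one (6.53 to 8.22 in young, 7.17 to 11.0 in old). Neither the 2 epithelial nor the 2 muscle markers had one. In cells profiled in bulk, a shift in the mix of cells and a change within each cell cannot be told apart.

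The H3K27ac regions over the TSS of the 8 genes that had one numbered 10, since Idh1 and Acaca each had an outer and an inner TSS with a region of its own. In young samples, density was highest at Aco1, 1.80 ± 0.0278 (SD, n = 3), where all 3 young samples lay above every young sample of the other 9 regions. The inner Idh1 region followed with 1.44 ± 0.217, then Acly with 1.39 ± 0.157 and the outer Idh1 region with 1.32 ± 0.356, and these 3 did not differ beyond their spread. The outer Idh1 region also overlapped those that followed. Next came the inner Acaca region (1.13 ± 0.0260), Idh2 (1.10 ± 0.0371), Acss2 (1.07 ± 0.0722), Cs (1.06 ± 0.0788) and Slc25a1 (1.05 ± 0.121), 5 regions within the spread of one another. The outer Acaca region, the longest at 53 kb, had the lowest young density, 0.869 ± 0.0772, and overlapped Slc25a1 in range. In old samples the density of Aco1 ran from 1.196 to 3.11 and no longer stood clear of the other regions. Among all H3K27ac regions, the mean density of Aco1 stood at percentile 98.5 and that of the outer Acaca region at percentile 25.1.

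**Figure D1:**
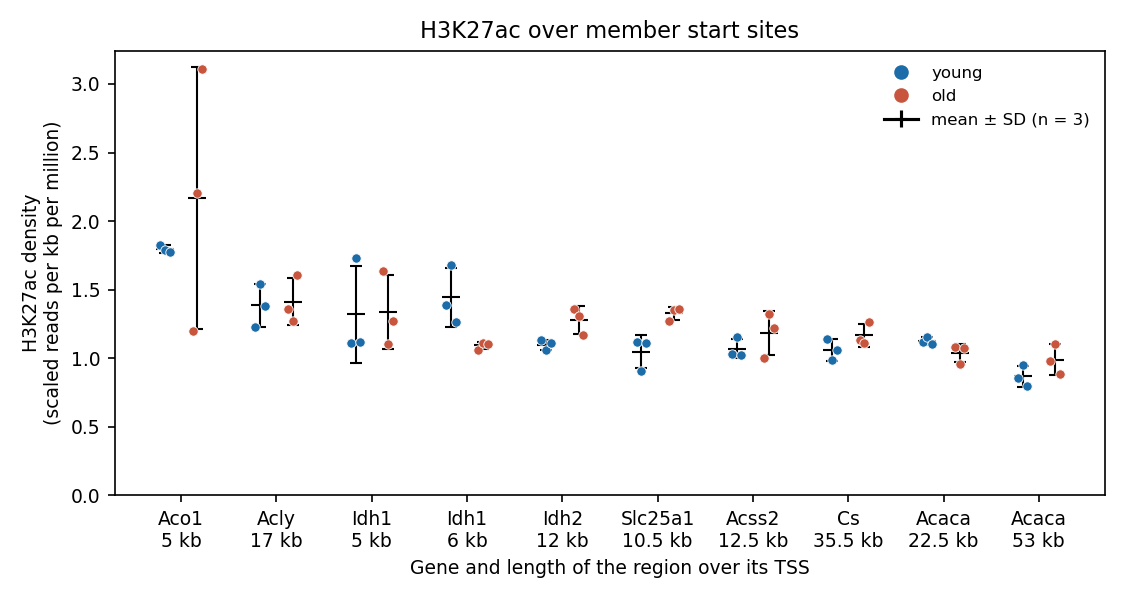
H3K27ac density in scaled RPM per kb over the 10 regions at TSSs of the genes, ordered by the mean of both ages, with the region length under each name. Points are samples (blue young, red old) and bars are mean ± SD (n = 3). Aco1 is highest in young samples and spreads widest in old samples. Every old point lies above every young point at Slc25a1 and Idh2, and below every young point at Idh1 (6 kb) and Acaca (22.5 kb).

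Slc25a1 (ENSMUSG00000003528.15, chr16:17925223-17928219, minus strand, GRCm38) is a gene of 2.997 kb that lay wholly inside an H3K27ac region of 10.5 kb, chr16:17920501-17931000, exons, introns and UTRs included. The scaled H3K27ac signal of this region was 23.5, 19.0 and 23.4 in young samples 1 to 3 and 26.7, 28.3 and 28.5 in old samples 1 to 3. Each old sample was above the highest young one. Its log2 fold change of old over young was 0.34 (SE 0.170, limma, adjusted p = 0.524), with a 95% interval from -0.00273 to 0.685. The region held 33 to 72 reads a library.

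Acly, the lyase (ENSMUSG00000020917.17, chr11:100476353-100528000, minus strand), had an H3K27ac region of 17 kb, chr11:100512001-100529000, over its promoter and the first 31.0% of its length. Its scaled signal was 41.8, 52.5 and 47.0 in young and 46.2, 43.3 and 54.5 in old samples, and the ages overlapped. The limma estimate of the log2 fold change was 0.03 (SE 0.134, adjusted p = 0.974; interval -0.245 to 0.296), and its sign turned when single samples were left out. A longer H3K27ac region of 52 kb, chr11:100454501-100506500, covered 58.4% of Acly from its 3′ side and reached the TSS of Klhl11, with a log2 fold change of 0.21 (adjusted p = 0.534).

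Cs, which makes the citrate (ENSMUSG00000005683.8, chr10:128337734-128362479, plus strand), was covered from end to end by a 35.5 kb region, chr10:128335001-128370500, that also held the TSS of Coq10a. Scaled signal was 81.0, 69.8 and 75.3 in young and 80.5, 78.6 and 89.7 in old samples, a log2 fold change of 0.14 (SE 0.106, limma, adjusted p = 0.725) with overlapping ages. Acss2 (ENSMUSG00000027605.18, chr2:155517948-155585724, plus strand) shared its 12.5 kb region, chr2:155507501-155520000, with the TSS of Ggt7. That region held 25.8, 28.9 and 25.7 in young and 25.1, 33.0 and 30.6 in old samples, again overlapping, with a log2 fold change of 0.13 (SE 0.163, adjusted p = 0.849). In regions that span neighbouring TSSs, the signal cannot be assigned to 1 gene.

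Among the isocitrate enzymes, Idh2 (ENSMUSG00000030541.16, chr7:80094846-80115392, minus strand) was the other gene whose ages separated upward. Its 12 kb region, chr7:80110501-80122500, began upstream of the gene and reached 4.89 kb into it. Scaled signal was 27.1, 25.4 and 26.6 in young samples and 32.7, 31.5 and 28.0 in old samples, so that the lowest old sample lay just above the highest young one. The limma estimate of the log2 fold change was 0.21 (SE 0.158, adjusted p = 0.712; interval -0.107 to 0.535).

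Idh1 (ENSMUSG00000025950.16, chr1:65158616-65186500, minus strand) had annotated TSSs in separate H3K27ac regions, and their estimates lay apart. The inner region of 6 kb, chr1:65174501-65180500, began 6 kb inside the gene. It held 16.7, 20.2 and 15.1 in young and 12.8, 13.4 and 13.3 in old samples, with every old sample below every young one (log2 fold change -0.38, SE 0.210, limma, adjusted p = 0.584). The outer region of 5 kb, chr1:65185501-65190500, also held the TSS of Pikfyve, a lipid kinase gene. It held 11.1, 17.3 and 11.2 in young and 16.3, 11.0 and 12.7 in old samples, a log2 fold change of 0.03 (SE 0.235, adjusted p = 0.985). The difference between the inner and outer regions was not tested.

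Aco1 (ENSMUSG00000028405.9, chr4:40143081-40198338, plus strand) had a compact TSS region of 5 kb, chr4:40141501-40146500, over exon and intron sequence at the start of the gene. Young samples were close to one another at 18.3, 17.9 and 17.8, whereas old samples held 11.96, 22.0 and 31.1, below and above all young samples. The limma estimate of the log2 fold change was 0.16 (SE 0.232, adjusted p = 0.874). A second region of 9.5 kb, chr4:40150001-40159500, lay wholly in an intron of Aco1 and held 36.9, 26.5 and 28.6 in young and 29.5, 21.2 and 20.9 in old samples. Its log2 fold change was -0.36 (SE 0.175, adjusted p = 0.515), the ages overlapped, and it was the only 1 of the 33 H3K27ac regions under an unadjusted p of 0.05, where 9.6% of all regions were. It is named here after its values were seen.

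Acaca (ENSMUSG00000020532.18, chr11:84129672-84401651, plus strand), the longest of the genes at 271.98 kb, held 10 of the 33 H3K27ac regions. The outer TSS lay at the edge of the 53 kb region, chr11:84078001-84131000, which also held the TSS of Tada2a and had only 2.51% of its length in Acaca. It held 90.5, 101 and 84.9 in young and 104, 117 and 93.8 in old samples, which overlapped (log2 fold change 0.19, SE 0.102, limma, adjusted p = 0.579). The inner TSSs lay in a 22.5 kb region, chr11:84178001-84200500, 48.3 kb into the gene. There the signal was 50.3, 51.9 and 49.7 in young and 48.6, 43.3 and 48.4 in old samples, with all old samples lower, and a log2 fold change of -0.12 (SE 0.126, adjusted p = 0.827). The other 8 regions of Acaca lay in its body and had log2 fold changes from -0.48 to 0.22.

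Over all 33 H3K27ac regions, 21 log2 fold changes were above 0 and 12 below, with a median of 0.0749 against -0.00278 over all 31617 regions. For the 10 regions at a TSS the median was 0.136, against 0.0237 for all 9869 regions over a TSS. The number called at an adjusted p under 0.05 was 0 of 33 (limma), where 26 regions or 0.0822% of the table were called, and edgeR on the recovered reads also called 0 of the 33. DESeq2 called 0 too, but could not call every region. It gave no adjusted p at the TSSs of Slc25a1, Acly, Acss2, Aco1, Idh1 and Idh2 or at the inner region of Acaca. Ages did not overlap in 2 regions that were higher in old samples, Slc25a1 and Idh2, where 7.09% of all regions were, and in 2 that were lower, the inner regions of Idh1 and Acaca, where 7.42% were. Both shares of the 33 were near those of the table. These regions were all among the 10 at a TSS, 2 higher and 2 lower. Of all H3K27ac regions over a TSS, 8.42% were higher and 5.59% lower in this way. Without RLE scaling the median of all regions moved to -0.12, 14 of the 33 estimates were above 0 and 19 below, and the ages separated upward in 0 and downward in 3 of the 33. The split of all called regions was 10 higher and 16 lower with the scaling and 16 higher and 89 lower without it.

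In H3K27me3, Acss1 stood apart from the other genes by what covered its start. Acss1 (ENSMUSG00000027452.11, chr2:150618105-150668500, minus strand) began inside a domain of 43.5 kb, chr2:150657001-150700500, that took in 22.8% of the gene, its first exon and 5′ UTR, and the TSS of Vsx1, a homeobox gene upstream of it. Only 26.4% of the domain lay in Acss1, so its signal cannot be assigned to this gene alone. The scaled H3K27me3 signal of this domain was 118, 112 and 123 in young samples and 102, 101 and 94.5 in old samples. Each old sample was below the lowest young one. The limma estimate of the log2 fold change was -0.24 (SE 0.0911, adjusted p = 0.220; interval -0.433 to -0.0534), a fold of 0.845. The domain held 178 to 595 reads a library and its mean density was at percentile 91.9 of all H3K27me3 regions.

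The other H3K27me3 regions of Acss1 had estimates of the same sign. Next to the domain, a region of 3 kb in an intron, chr2:150654001-150657000, held 2.17, 4.83 and 3.92 in young and 1.09, 1.71 and 1.90 in old samples, again without overlap. Its limma estimate of the log2 fold change was -0.97 (SE 0.358, adjusted p = 0.215), on few reads, 11 to 24 in a young library and 3 to 6 in an old one. A further intronic region of 7.5 kb, chr2:150646501-150654000, held 14.4, 11.3 and 11.2 in young and 10.3, 5.69 and 11.4 in old samples, which overlapped (log2 fold change -0.46, adjusted p = 0.383). The region of 8.5 kb downstream of the gene, chr2:150609501-150618000, near the TSS of Apmap, had a log2 fold change of -0.21 (adjusted p = 0.656). The single H3K27ac region in the Acss1 window, chr2:150605501-150610000, also lay at Apmap and not at Acss1, with a log2 fold change of 0.02 (adjusted p = 0.992).

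**Figure D2:**
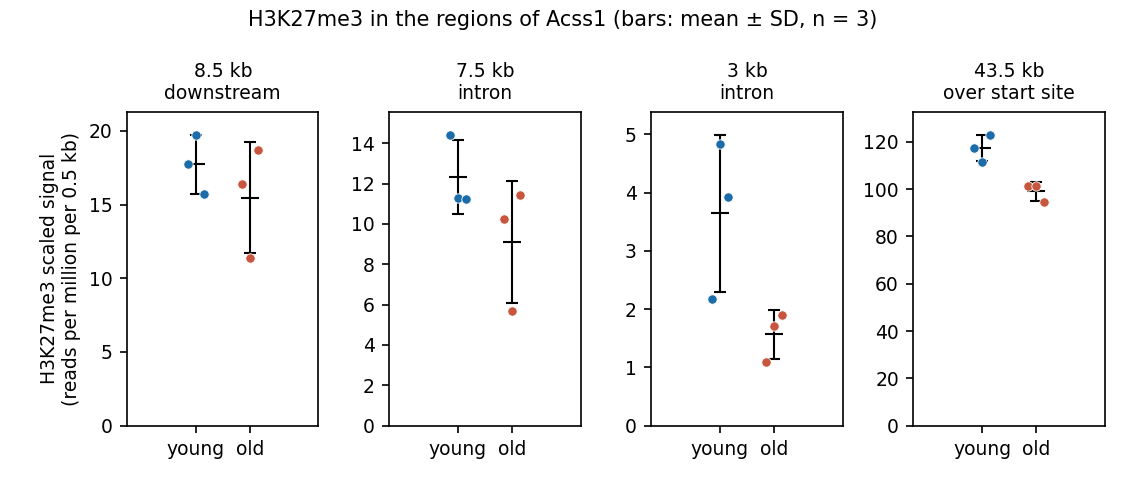
Scaled H3K27me3 signal, in RPM per 0.5 kb, in the 4 regions of the Acss1 window from its downstream end to its start, with a separate axis from 0 in each panel. Blue points are young and red points old samples, with mean ± SD (n = 3). The ages do not overlap in the 3 kb intronic region and in the 43.5 kb domain over the TSS, where young samples run from 112 to 123 and old samples from 94.5 to 102.

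Slc25a1 lay between H3K27me3 regions. Upstream, a 22 kb region, chr16:17929001-17951000, held 57.9, 70.6 and 66.2 in young and 67.2, 68.2 and 53.3 in old samples, which overlapped (log2 fold change -0.05, SE 0.118, limma, adjusted p = 0.896). Its density was at percentile 96.2 of H3K27me3 regions. Downstream, a 9.5 kb region, chr16:17911501-17921000, lay over the TSSs of Ess2 and Gsc2, the latter a homeobox gene, and had a log2 fold change of -0.21 (adjusted p = 0.511). Between them the H3K27ac region of Slc25a1 overlapped H3K27me3 by 3.0 kb at its edges, and the gene body itself held none of the H3K27me3 regions.

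A sliver of 0.5 kb on that edge, chr16:17921001-17921500, held 9, 5 and 6 H3K27me3 reads in the young libraries and 3, 0 and 1 in the old libraries. Over the group, per library read scaled by the RLE factor, the ratio of old to young reads was 0.292, with an exact 95% counting interval from 0.0725 to 0.871. The fitted log2 fold change of -1.30 (limma, adjusted p = 0.189) depends on the pseudocount at so few reads. PCR copies are not independent molecules, so the interval covers counting error only.

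**Figure D3:**
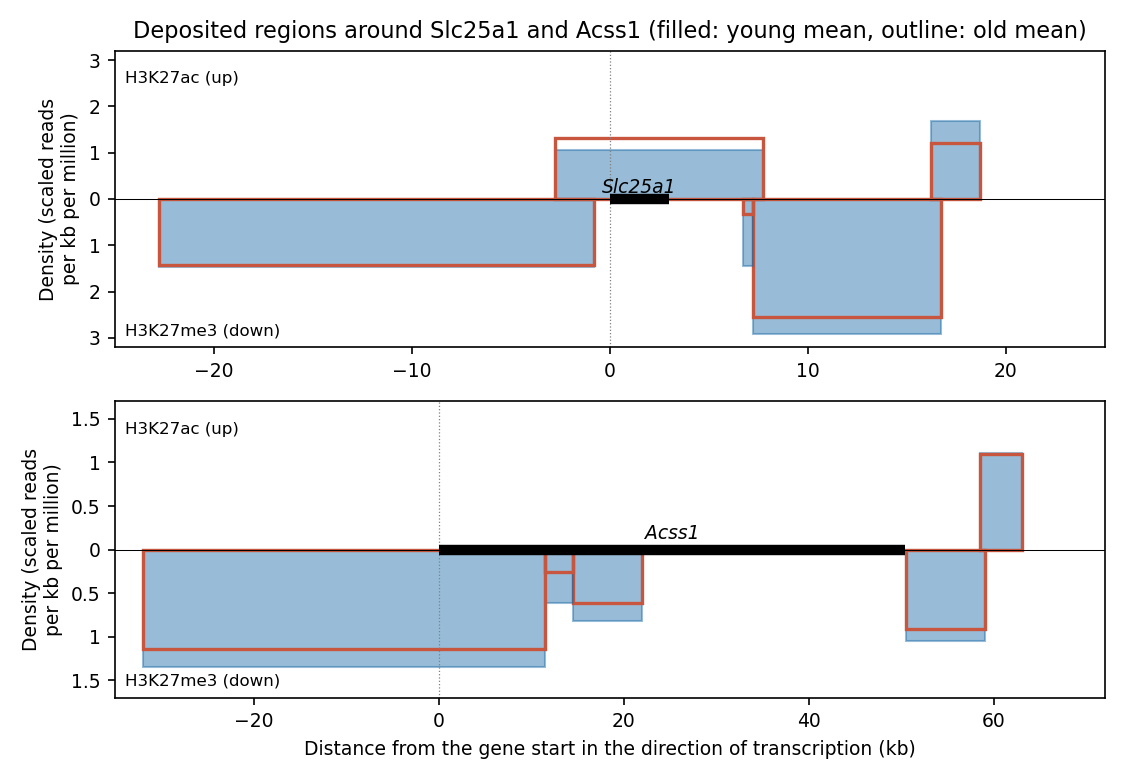
Deposited regions around Slc25a1 and Acss1 by distance in kb from the gene start in the direction of transcription, H3K27ac drawn upward and H3K27me3 downward as density in scaled RPM per kb. Filled blocks are young means, outlines old means, and the black bar is the gene. H3K27ac covers Slc25a1 between H3K27me3 blocks, whereas the start of Acss1 lies in H3K27me3 without H3K27ac.

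For the remaining genes H3K27me3 lay outside the gene body. The region of Acaca, 9 kb long at chr11:84409001-84418000, started 7.35 kb past the end of the gene and held 15.01, 14.5 and 14.6 in young and 14.0, 9.67 and 11.1 in old samples, all lower (log2 fold change -0.35, SE 0.181, limma, adjusted p = 0.404). Acly had a 13.5 kb region 10.0 kb upstream, at the TSS of Ttc25, with a log2 fold change of 0.21 (adjusted p = 0.602). Aco1 had a 7 kb region 8.08 kb upstream with 0.24 (adjusted p = 0.582), and the ages overlapped in both. Acss2 had a 30 kb region at the TSS of Myh7b, past its 3′ end, with 0.04 (adjusted p = 0.910), and Idh1 an 18.5 kb region past its 3′ end with -0.07 (adjusted p = 0.887). Cs and Idh2 had no H3K27me3 region within 20 kb.

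Over the 12 H3K27me3 regions, 3 log2 fold changes were above 0 and 9 below, with a median of -0.21 against -0.00766 over all 28047 regions and -0.0533 over those at a TSS. Among the 12, 4 were of Acss1 and 3 of Slc25a1, all with estimates below 0, and regions of 1 gene are not independent. Summed to 1 value a gene, 3 of 7 estimates were above 0 and 4 below. The number called was 0 of 12 with limma and edgeR, where limma called 137 regions or 0.488% of the table. DESeq2 also called 0, but it gave no adjusted p for the 3 kb region of Acss1 and the 0.5 kb sliver, which it could not call. In limma, 3 of the 12 were under an unadjusted p of 0.05, namely the Acss1 domain, its 3 kb neighbour and the 0.5 kb sliver by Slc25a1, where 13.9% of all regions were. In those 3 and the Acaca region, 4 of 12, no old sample reached the lowest young sample, which held for 10.6% of all regions, and in 0 of 12 was every old sample above every young one, which held for 8.56%. Of these 4, the Acss1 domain and its neighbour adjoin and share their surroundings, so they are not independent. Without RLE scaling the median of all H3K27me3 regions was -0.13, and 2 of the 12 estimates were above 0 and 10 below. All called H3K27me3 regions split into 23 higher and 114 lower with the scaling and 21 higher and 753 lower without it.

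Summing the regions of each window to 1 value a gene left H3K27me3 of Acss1 and H3K27ac of Idh2 furthest from 0 relative to their error. Acss1 held 152, 147 and 154 in young and 129, 120 and 126 in old samples, a fold of 0.829 (log2 fold change -0.27, SE 0.0816, interval -0.441 to -0.0983). It was not called over the 15242 genes with an H3K27me3 region in their window (limma, adjusted p = 0.188). On the signal as deposited, without RLE scaling, its log2 fold change was -0.39 and it was called (limma, adjusted p = 0.0426), in a fit that called 362 genes, 351 of them lower in old samples. The share of H3K27me3 reads inside regions was 62.3% to 66.6% in young and 53.8% to 60.8% in old libraries, and its part in the result was not tested. At the TSS of markers of other cell types, summed H3K27me3 was 359 to 374 in young and 316 to 356 in old samples for 3 endothelial genes (Cdh5, Kdr and Tek), 129.6 to 139 and 114 to 126 for 2 epithelial genes (Epcam and Krt8), and 312 to 347 and 292 to 333 for 2 muscle genes (Myod1 and Myf5). The ages did not overlap in the first 2 lists, with old samples lower as over Acss1, and the part of this in the result was not tested either. Idh2 held 56.5, 51.4 and 51.3 in young and 60.6, 67.6 and 60.6 in old samples for H3K27ac, all old above all young, with a log2 fold change of 0.24 (SE 0.1198, limma, adjusted p = 0.439; interval 0.00530 to 0.483), and without RLE scaling its ages overlapped.

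The remaining window sums overlapped between ages, except H3K27me3 of Acaca, which was lower. For H3K27ac, 7 of 9 estimates were above 0, and Slc25a1 (0.16), Acly (0.14), Acss2 (0.14), Acaca (0.08) and Cs (0.07) lay between Idh2 and Acss1 (0.02), with Aco1 (-0.02) and Idh1 (-0.09) below 0. Of the 9 genes, 0 were called in H3K27ac, where 0.53% of 15854 genes were, and 0 of 7 were called in H3K27me3, where 0.394% were. Ages separated upward in H3K27ac for 1 of 9 genes (10.8% of all genes) and downward for 0 (4.81%). In H3K27me3 they separated downward for 2 of 7, Acss1 and Acaca (13.2% of all genes), and upward for 0 (6.45%). Under an unadjusted p of 0.05 were Idh2 for H3K27ac and Acss1 for H3K27me3. The share of all genes under that level was not computed, so these 2 sums cannot be set against a background. The 95% intervals of the other sums include 0 and do not show that the ages are alike.

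**Figure D4:**
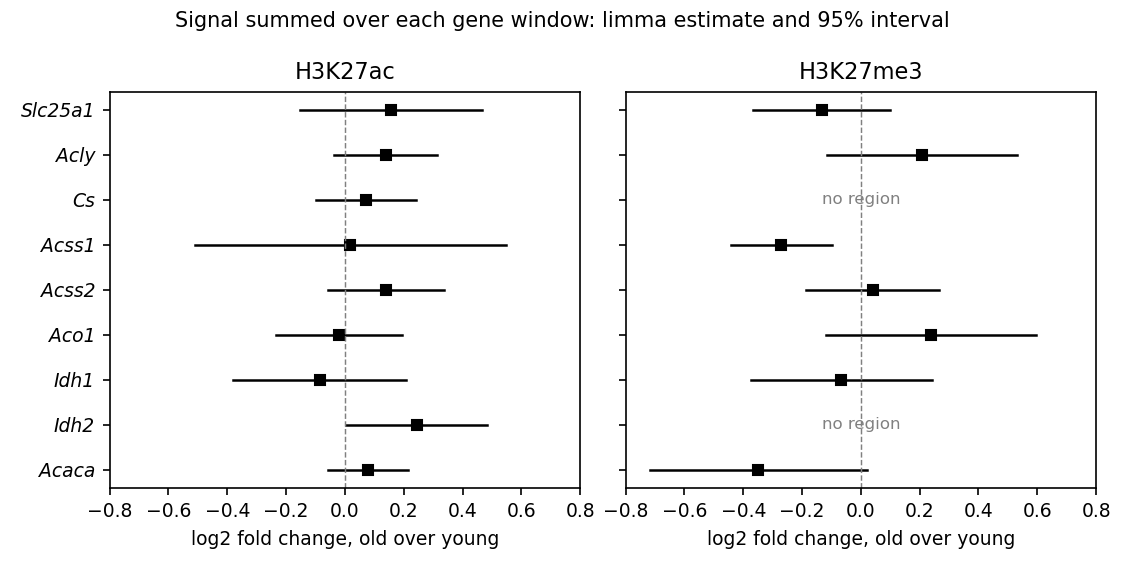
Log2 fold change of old over young for the signal summed over each gene and 20 kb on either side, with squares for the limma estimate and lines for its 95% interval, H3K27ac on the left and H3K27me3 on the right. Only the intervals of Idh2 for H3K27ac and Acss1 for H3K27me3 lie on one side of 0 before adjustment. The share of all genes with such an interval was not computed. Cs and Idh2 have no H3K27me3 region in their window.

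The balance of the marks was taken in each sample as the log2 H3K27ac signal of the window minus the log2 H3K27me3 signal, for the 7 genes with regions of both. It is described without a test, because the tables were scaled apart and its zero point has no absolute meaning. The window sums are not divided by length, so the order of the genes also follows how much of each window its regions cover. For Acaca, the H3K27ac regions summed to 214.5 kb and the H3K27me3 region to 9 kb, whereas for Acss1 the sums were 4.5 kb and 62.5 kb. In young samples the balance was 4.498 ± 0.119 for Acaca (SD, n = 3), 2.94 ± 0.239 for Acly and 2.64 ± 0.0541 for Aco1, and the samples of these 3 genes did not overlap. Acss2 (0.697 ± 0.164) and Idh1 (0.414 ± 0.249) overlapped. Only Slc25a1 (-1.98 ± 0.238) and Acss1 (-3.88 ± 0.283) lay below 0, each with all 6 samples.

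Between ages, the balance of Acss1 ran from -4.21 to -3.71 in young and from -3.71 to -3.49 in old samples, a difference of 0.29 in which the groups touched without overlapping. That of Acaca ran from 4.41 to 4.63 in young and from 4.67 to 5.23 in old samples, a difference of 0.43 without overlap. Aco1 differed the other way, from 2.58 to 2.69 in young and from 2.32 to 2.45 in old samples, a difference of -0.26 without overlap. How often the ages separate in the balance over all genes was not computed, so these separations cannot be set against a background. Slc25a1 was 0.29 higher in old samples, but its samples overlapped, from -2.19 to -1.72 in young and from -1.98 to -1.36 in old. The differences of Acss2 (0.10), Idh1 (-0.02) and Acly (-0.07) were smaller than their spread. With 5 kb on either side of each gene, 1 gene, Slc25a1, had regions of both marks, with a difference of 0.475. For the others 1 of the marks, H3K27ac for Acss1 and H3K27me3 for the rest, had no region that close. That side of their balance thus describes the wider neighbourhood and not the gene.

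**Figure D5:**
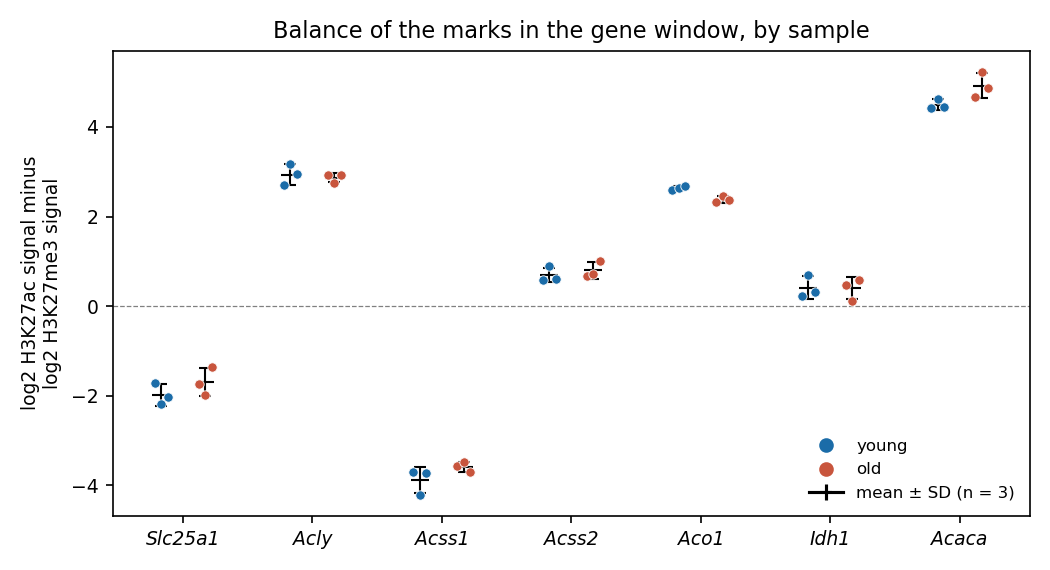
Balance of the marks in each sample, log2 H3K27ac minus log2 H3K27me3 signal of the gene window, for the 7 genes with both marks. Blue points are young and red points old samples with mean ± SD (n = 3). Slc25a1 and Acss1 lie below 0 at both ages, and the ages separate for Acss1, Aco1 and Acaca. The share of all genes whose ages separate in this way was not computed.

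Genes that feed or use the same pathway gave a frame for these values. Of 37 such genes, 35 had an H3K27ac region at a TSS, in 38 regions, and the exceptions were Slc13a5, which imports citrate across the plasma membrane, and Mlxipl, a glucose-responsive transcription factor. No region was called, 18 estimates were above 0 and 20 below, and the median was -0.00707. By role, the median was 0.0226 for pyruvate entry into the mitochondrion, -0.0162 for the TCA cycle, -0.00722 for carriers and shuttles and -0.0162 for lipid and sterol synthesis. H3K27me3 regions at a TSS were found for Slc13a5, Acacb and Mlxipl, 4 regions with log2 fold changes from -0.23 to -0.08 and none called.

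Of the 38 H3K27ac regions, 5 had all old samples higher, as had 8.42% of all H3K27ac regions over a TSS, and 1 had all old samples lower, as had 5.59%. Pdk2, a kinase that inhibits pyruvate dehydrogenase, held 11.1 ± 0.105 at the old age against 8.02 ± 1.97 at the young age (SD, n = 3), a log2 fold change of 0.47 (SE 0.261, limma, adjusted p = 0.581). Idh3a, the catalytic subunit of the NAD-dependent isocitrate dehydrogenase, held 51.3 ± 10.1 against 41.2 ± 2.21 (log2 fold change 0.30, SE 0.138, adjusted p = 0.489). The others, which the naming rule did not select and which are named after their values were seen, were Srebf1 (0.23, adjusted p = 0.145), Srebf2 (0.24, adjusted p = 0.656) and Sdha (0.12, adjusted p = 0.808). The Srebf1 region of 142.5 kb also held the TSSs of Rai1 and Tom1l2. Srebf2 had another region at a TSS, of 46.5 kb, in which the ages overlapped (0.08, limma, adjusted p = 0.871). In 1 region, of 9.5 kb at the fatty acid elongase gene Elovl6, all old samples were lower, 27.1 ± 1.84 against 34.6 ± 1.69 (-0.35, SE 0.153, limma, adjusted p = 0.452). The other Elovl6 region at a TSS, of 5.5 kb, overlapped between ages (-0.22, adjusted p = 0.853). Of the 4 H3K27me3 regions, 1 had all old samples lower, as had 15.6% of all H3K27me3 regions over a TSS. It was that of Slc13a5, 176 ± 7.72 against 207 ± 7.13 (-0.23, SE 0.0834, limma, adjusted p = 0.195).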

How the data were processed

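CUT&RUN libraries of H3K27ac and H3K27me3 from young and old MSCs were analysed (12 samples, grouped by the labels). The authors deposited 1 table per mark with a signal value for every region and sample. The submitters' processing notes name Bowtie2, Picard and GRCm38 (mm10), with no versions; the peak caller was not given in the sources used here. The deposited signal is named RPKM but is not divided by region length: 100% of values were whole reads (tolerance 0.01), expressed as RPM for a constant 0.5 kb, so the planned log-scale test was kept and count tests were added on the recovered reads. The state that the authors' own comparison gave each region was not used. There were 0 unused columns of sample values.

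Regions were matched to GENCODE vM21 gene bodies with 20 kb on either side and to protein-coding TSSs within 1 kb. Each mark was fitted apart with limma 3.58.1 (R 4.3.3) on log2(RLE-scaled signal + 0.5), with trend and robust moderation and no low-value filter. Tests were two-sided with Benjamini-Hochberg adjustment over the whole table, calls were made at 0.05, and the scripts were tested on simulated data. Fold changes on this scale are understated at low signal. edgeR 4.0.16 and DESeq2 1.42.0 on whole reads, other scalings, pseudocounts, filters and windows, and the omission of each sample were alternatives. Regions over a TSS of the genes were always described; of the others, called ones and, per mark and direction, up to 2 with the largest change among those whose ages did not overlap. The genes, lists and rule were chosen with earlier results of these data known. No 2 replicates agreed within sampling noise. The labels gave no batch or date. Not every marker of the cell type lists is reported here. Yeast DNA in the stop buffer was not analysed here.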

Additional observations from a re-analysis of the deposited data

How the results depend on the processing

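Of 349 values of 23 results under the alternatives, 332 kept their direction and side of the threshold or moved by less than the spread between replicates. A value for which DESeq2 gave no adjusted p was counted as not called. On the signal as deposited, the median of the member regions was -0.0424 for H3K27ac and -0.33 for H3K27me3, 1 gene (Acss1) was called for H3K27me3 with a log2 fold change of -0.39, and the H3K27ac change turned to -0.0921 at the TSS of Acly and to -0.0850 at the outer TSS of Idh1. The same setting called 105 H3K27ac regions against 26, 774 H3K27me3 regions against 137, 25 against 84 genes for H3K27ac and 362 against 60 for H3K27me3. With gene bodies and no flank the H3K27me3 median was -0.46, but it rested on Acss1 alone, the only one of the genes with H3K27me3 regions in its body. The median change of the balance, 0.0990 over 7 genes, rested on 1 gene at 5 kb (0.475) and could not be computed with no flank (0 genes). Leaving out each sample in turn gave -0.0679 to 0.105 for the TSS of Acly (below 0 without young 1 or old 3), -0.12 to 0.23 for the outer TSS of Idh1 (below 0 without young 1, young 3 or old 1), -0.14 to 0.53 for the TSS of Aco1 (below 0 without old 3), -0.13 to 0.0698 for the H3K27me3 region upstream of Slc25a1 (above 0 without young 2 or old 3), -0.25 to -0.13 for the H3K27me3 median (-0.13 without old 3) and -0.0102 to 0.163 for the median change of the balance, and the directions that turned rest on single samples. The H3K27ac median ran from 0.0341 (without young 3) to 0.105, and H3K27ac at the TSS of Acss2 from 0.0511 (without old 2) to 0.246 (without old 1), of Cs from 0.0807 (without old 3; 0.0829 without young 2) to 0.189, of Acaca from 0.104 (without old 2) to 0.264 at the outer and from -0.14 to -0.0606 (without old 2) at the inner region. Calls stayed at 0 in each of those fits. For changes that reversed, the cause was not tested.
With the replicate block 0 regions and 0 genes of the 9 were called in either mark. Numbers gave no pairing, since deviations of same-numbered samples correlated at -0.0542 to 0.0656 for H3K27ac and -0.0777 to 0.0434 for H3K27me3. The block changed no call. The lowest library totals, of old sample 2, limit the short regions most.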
